A study of Mus musculus with 24 samples.

Results

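The cytosolic ribosomal protein genes encode the protein part of the ribosomes that translate messenger RNA in the cytoplasm. Rows whose symbol has the form of a large-subunit (Rpl), small-subunit (Rps) or stalk (Rplp) gene were taken, rows named -ps and Rps6k kinase genes were left out, and a mean of at least 5 CPM (counts scaled to library size) over 24 libraries was required. Of 48526 rows, 89 matched the symbol pattern and 84 passed the limit on the mean. They comprised 43 large-subunit genes, 31 small-subunit genes, 3 stalk genes, 4 paralogs of other members (Rpl7l1, Rpl22l1, Rpl36al and Rps27l) and 3 loci that GENCODE M21 lists as processed pseudogenes (Rpl6l, Rps12l1 and Rps3a2). Members were thus chosen by their symbol and their mean level, so levels are given as a description. Just inside the limit lay Rpl6l at 36.3 CPM and Rps12l1 at 40.4 CPM, and just outside it Rps3a3 at 0.999 CPM and Rpl39l at 0.847 CPM.

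RNA came from T cells, labelled CD8+ T cells, of OT-1 mice. The cells were purified from cultured splenocytes by removing other cell types. OT-1 mice carry a transgenic T cell receptor for a peptide of ovalbumin. All cultures received the peptide at 2 µg/mL. In the TLR7 and TLR2 groups an agonist of Toll-like receptor 7 or Toll-like receptor 2 preceded it by 1 h, and the OVA groups had the peptide alone. For TLR7 the labels list Gardiquimod at 3 µg/mL as well as R848 at 10 µg/mL, and for TLR2 they list Pam3CSK4 at 300 ng/mL. They do not state which TLR7 agonist the sequenced cultures received. Each stimulus was sampled at 72 h and at 24 h, with 4 libraries in each of 6 groups: TLR7 72 h, TLR7 24 h, TLR2 72 h, TLR2 24 h, OVA 72 h and OVA 24 h. The labels do not say whether replicates were separate mice or cultures, so p-values reflect only how these libraries varied, which may be technical. An agonist in a splenocyte culture can act on the T cells or on the other cells present, and these cannot be told apart here.

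The messenger RNAs of ribosomal proteins are among the most abundant in dividing cells. Most begin with a C followed by a run of pyrimidines, the 5′ terminal oligopyrimidine (TOP) motif, through which the kinase mTOR and the RNA-binding protein Larp1 control how well they are translated. When a T cell is activated it grows before it divides, and ribosome production is part of that growth. RNA levels, which were measured here, do not report translation.

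Libraries held 10.5 to 27.1 M (mega) counts, and 5 of them held at most 11.7 M (OVA 24 h replicate 4, TLR2 24 h replicate 4, TLR7 24 h replicate 2, and TLR7 72 h replicates 1 and 2). On the first principal component, which carried 60.2% of the variance in log2 CPM, 8 libraries lay in the middle of 3 equal parts of its range: TLR7 24 h replicates 3 and 4, TLR2 72 h replicates 1, 3 and 4, OVA 72 h replicate 4, and OVA 24 h replicates 1 and 3. Outside these 8 the component separated the times, at -90.5 to -56.5 at 72 h and 85.2 to 99.1 at 24 h. Within the 8 it did not: the 72 h libraries lay at -13.1 to -1.2 and the 24 h libraries at -20.5 to -12.5. The 9 markers of CD8 T cells were present in all groups, and their sum moved with time: it was 3150 to 5290 CPM per library at 72 h, against 1720 to 3610 CPM at 24 h, and 7 of the 9 were called higher at 72 h, with a median log2 fold change of 0.73. The 8 dendritic cell markers summed with TLR7 to 107 to 182 CPM at 72 h, against 5.15 to 31.1 CPM at 24 h. Most of that sum was Batf3, a transcription factor, at 103 to 181 CPM at 72 h, against 0.858 to 25.8 CPM at 24 h with TLR7, and over all stimuli the other 7 summed to 0.949 to 7.74 CPM at 72 h, against 3.65 to 9.81 CPM at 24 h. Of the 6 that could be tested, 1 was called higher and 3 lower at 72 h. The 10 B cell markers summed to 5.87 to 97.6 CPM at 72 h, against 25.8 to 254 CPM at 24 h, and 8 of the 10 were called lower at 72 h (edgeR, adjusted p under 0.05). The part of these marker changes, CD8 T cell markers included, in the results below was not tested, and in bulk RNA fewer cells of a type cannot be told apart from less RNA per cell. Of the members' values, 92.2% were not whole numbers, against 30.3% over all genes tested. An estimated count need not be whole where reads match several loci, so the level of any 1 member is uncertain. The rows named -ps held no more than 0.3% of the counts of a library.

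Ribosomal protein genes filled 49 of the 100 highest places by mean CPM. Per kilobase of the principal transcript, the 84 members ran from 41.7 to 3858 CPM, with a median of 1661. The highest were Rps4x, the X-linked small-subunit gene, at 3858 CPM per kilobase, then Rpl32 at 3798, Rpl23a at 3520, Rps18 at 3466 and Rpl41 at 3188. The lowest were 3 pseudogene loci and 2 paralogs: Rpl6l at 41.7 CPM per kilobase, Rpl7l1 at 78.7, Rps12l1 at 101.0, Rps3a2 at 163 and Rps27l at 237. The next lowest was Rps15a at 307 CPM per kilobase, whose principal transcript is annotated at 5179 bases. These levels depend on the annotated length. With the union of all exons in place of the principal transcript, the median was 645.5 CPM per kilobase.

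Start-site sequences are shown for members whose change with time is described below. They are RefSeq sequences on build GRCm38.p6, read 5′ to 3′ on the gene's strand, from 10 bases before the annotated start through the 20 bases that begin with it, and the capitals mark the longest run of C and T. Rps18, Rps27 and Rpl13a were called higher at 72 h and have a long run near the RefSeq start. Rps15 was called higher and has a short one, but its window ends before the GENCODE start and does not describe that start. In Rps18 and Rpl13a the window begins after the GENCODE start. Rpl10 was not called, and the paralogs Rps27l and Rpl7l1 were called lower.
Rps18 (chr17:33955646-33955675, minus strand): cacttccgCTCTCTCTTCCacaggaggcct
Rps27 (chr3:90213629-90213658, minus strand): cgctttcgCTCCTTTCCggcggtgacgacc
Rpl13a (chr7:45128726-45128755, minus strand): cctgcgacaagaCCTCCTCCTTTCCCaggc
Rps15 (chr10:80292421-80292450, plus strand): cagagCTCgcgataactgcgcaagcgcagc
Rpl10 (chrX:74270806-74270835, plus strand): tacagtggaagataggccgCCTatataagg
Rps27l (chr9:66946076-66946105, plus strand): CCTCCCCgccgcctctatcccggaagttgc
Rpl7l1 (chr17:46782637-46782666, minus strand): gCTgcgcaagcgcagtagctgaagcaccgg
The run was 11 bases long in Rps18, 9 in Rps27 and 14 in Rpl13a, against 3 in Rps15 and Rpl10, 7 in Rps27l and 2 in Rpl7l1. Long runs were also found in members that were not called, with 17 bases in Rpl15, 17 in Rpl7a and 14 in Rpl14. The promoter table held 61 of the 84 members. A run of at least 9 bases in this 30-base window was found in 20 of the 61 members (32.8%), against 7.0% of 18778 genes. Of these 20 members 17 were called higher at 72 h, and of the 41 with a shorter run 30 were called higher and 2 lower. Over all genes tested, 35.3% were called higher and 32.4% lower. The median log2 fold change was 0.42 with the long run and 0.33 with a shorter one. Whether the run bears on the change was not tested. The RefSeq start was up to 22 bases from the GENCODE start in the 7 genes shown. Over the 61 members it was 0 to 575 bases away. Among members with a long run, it was 0 bases away in Rpl18 and Rpl19 but 301 in Rps10 and 493 in Rpl35. A run counted here therefore need not be at the start of the messenger RNA. Over the 300 bases from 250 before the start, CCGGAAG, the letters bound by ETS factors, occurred on either strand in 37.7% of the members, against 11.4% of all genes. A match of letters is a description and does not show that a site is used.

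The members together took up 7.83% to 16.4% of the deposited counts of a library. The mean share was higher at 72 h than at 24 h with each stimulus, although the libraries overlapped with OVA. With TLR7 it was 15.9%, 14.6%, 15.8% and 15.6% at 72 h, against 10.5%, 8.80%, 12.2% and 12.8% at 24 h. With TLR2 it was 12.0%, 13.5%, 12.5% and 12.3% at 72 h, against 9.98%, 7.83%, 10.4% and 10.6% at 24 h. With OVA it was 16.4%, 13.1%, 16.3% and 11.2% at 72 h, against 12.3%, 11.2%, 12.6% and 9.90% at 24 h. Of the 8 libraries in the middle of the first component, 7 were also in the middle here. Outside the 8, the 72 h libraries ran from 13.1% to 16.4% and the 24 h libraries from 7.83% to 11.18%, and the 8 ran from 11.16% to 12.8%. The exception was OVA 72 h replicate 4, at 11.16%, just below OVA 24 h replicate 2, at 11.18%. Within the 8 the share was not higher at 72 h: the 72 h libraries ran from 11.16% to 12.5% and the 24 h libraries from 12.2% to 12.8%. The lowest shares belonged to replicate 2 of TLR2 24 h and of TLR7 24 h.

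**Figure D1:**
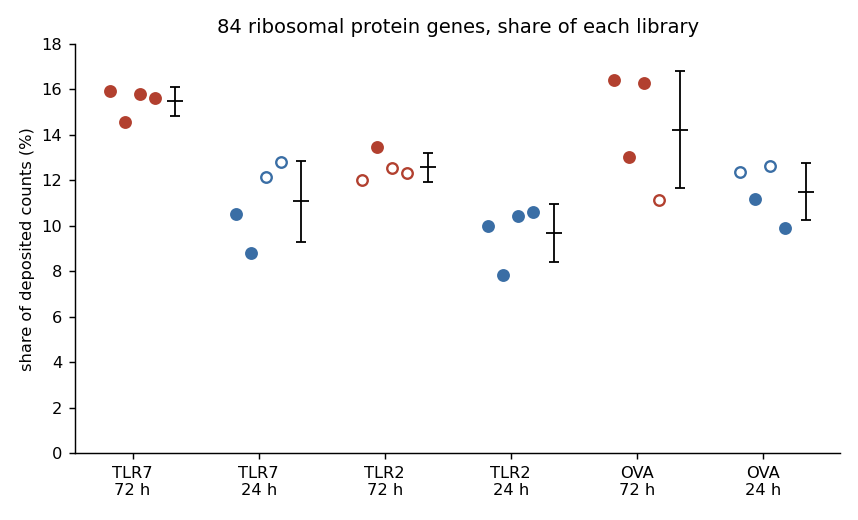
Share of the deposited counts, in percent, that the 84 ribosomal protein genes held in each library, by group; open points are the 8 libraries in the middle of the first principal component, and bars are the group mean ± SD (n = 4). All 4 TLR7 72 h libraries lie above all 4 TLR7 24 h libraries, and likewise for TLR2.

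To ask how these genes changed between the times, the 3 stimuli were averaged. At 72 h, 64 of the 84 members were called higher and 2 lower than at 24 h (edgeR quasi-likelihood test, Benjamini-Hochberg adjusted p under 0.05 over 14560 genes), where 35.3% of all genes tested were called higher and 32.4% lower. The median log2 fold change of the members was 0.36, against 0.04 over all genes. The changes were small per gene: the highest was 1.88-fold, and Rpl7l1 was the only member called with a log2 change of 1 or more in size. Large-subunit genes were called higher in 36 of 43 cases, small-subunit genes in 22 of 31 and stalk genes in 3 of 3. Of the 4 paralogs 1 was called higher and 2 lower, and of the 3 pseudogene loci 2 were called higher. The 18 members without a call included Rpl10, Rpl7 and Rps25. The 8 middle libraries were picked on a component that separates the times, so leaving them out widens the difference and is no check on these counts. It also leaves TLR2 72 h with 1 library, so no counts are given for that fit. Without the 5 shallow libraries 50 members were called higher and 2 lower (27.7% and 26.2% of all genes). Without replicate 2 of TLR7 24 h and of TLR2 24 h the counts were 59 and 2 (33.0% and 30.9% of all genes).

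Among the largest rises were Rpl36, Rplp1 and Rps15. Rpl36, of the large subunit, had a lowest, median and highest value of 102, 181 and 402 CPM in the 12 libraries at 72 h, against 28.6, 106 and 240 CPM in the 12 at 24 h (log2 fold change 0.91 ± 0.26 SE, edgeR adjusted p = 0.00442). The times overlapped, and the lowest value belonged to TLR2 24 h replicate 2. Rplp1, which with Rplp0 and Rplp2 forms the stalk that recruits translation factors, had values of 504, 905 and 2039 CPM at 72 h, against 199, 567 and 1111 CPM at 24 h (0.83 ± 0.24, adjusted p = 0.0044). Rps15, a small-subunit protein, had values of 739, 1179 and 1903 CPM at 72 h, against 241, 665 and 1145 CPM at 24 h (0.82 ± 0.20, adjusted p = 0.00135). The calls on Rpl36 and Rplp1 were lost without the 5 shallow libraries, at edgeR adjusted p = 0.0647 and 0.0633, with log2 fold changes of 0.66 and 0.62.

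Rises with a smaller SE were seen in Rps15a and Rpl17. Rps15a, a small-subunit protein, had values of 1364, 2113 and 2452 CPM at 72 h, against 928, 1139 and 1589 CPM at 24 h, a change of 0.69 ± 0.10 (edgeR adjusted p = 7.62e-05). Outside the middle libraries, every 72 h library was at or above 2084 CPM and every 24 h library at or below 1343 CPM, and the 8 middle libraries lay between them, at 1364 to 1589 CPM. Within these 8 the rise was not seen: those at 72 h held 1364 to 1574 CPM and those at 24 h 1414 to 1589 CPM. Rpl17, a large-subunit protein at the exit of the nascent chain tunnel, had values of 1783, 2475 and 2888 CPM at 72 h, against 1222, 1411 and 2028 CPM at 24 h (0.64 ± 0.10, edgeR adjusted p = 7.62e-05). Rpl28, a protein of the large subunit, rose by 0.77.

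**Figure D2:**
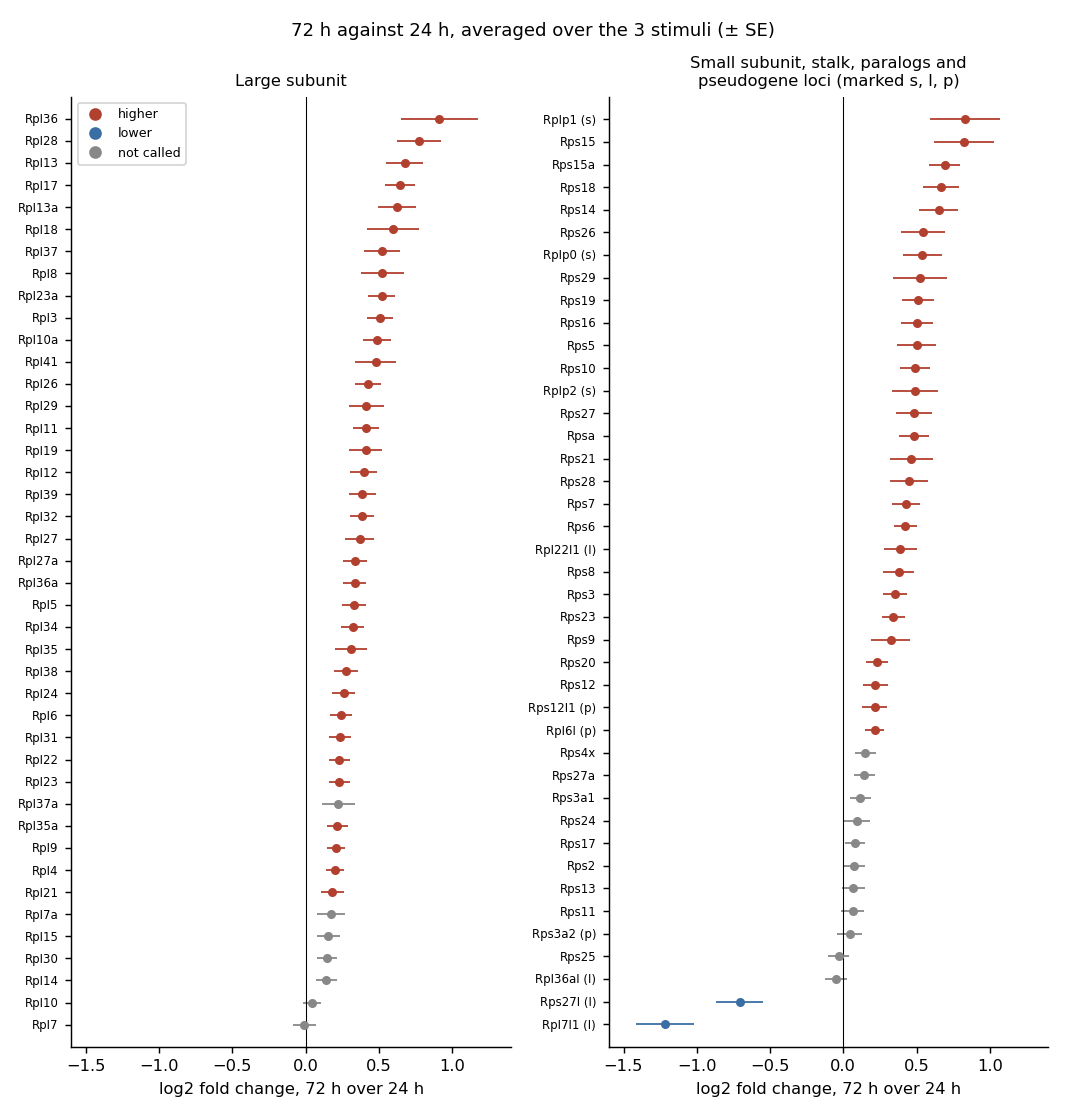
Log2 fold change of the members, all but 1 of the 84, at 72 h over 24 h, averaged over the 3 stimuli, with bars of 1 SE; red members were called higher, blue lower and grey not called, and s, l and p mark stalk genes, paralogs and pseudogene loci. Most members lie right of 0, and Rps27l and Rpl7l1 stand apart on the left.

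The best-studied members gave the following values in the same comparison. Rplp0, the core of the stalk, averaged 4338 ± 1090 CPM at 72 h and 2962 ± 753 CPM at 24 h (SD, n = 12 each), and rose by 0.54 on the log2 scale. Rpl3, which lies at the peptidyl transferase centre, averaged 4375 ± 702 CPM at 72 h and 3073 ± 520 CPM at 24 h, and rose by 0.51. Rpsa, also known as a laminin receptor, averaged 4871 ± 946 CPM at 72 h and 3476 ± 666 CPM at 24 h, and rose by 0.48. These 3 genes were all called, yet their libraries overlapped between the times.

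Rps6, the small-subunit protein that S6 kinases phosphorylate downstream of mTOR, averaged 3165 ± 455 CPM at 72 h and 2354 ± 310 CPM at 24 h, and rose by 0.42. Rpl5 and Rpl11, which with 5S ribosomal RNA bind and inhibit Mdm2, rose by 0.33 and 0.41. Rpl39, of the exit tunnel, rose by 0.39, and Rpl13a by 0.62. Rps19, the gene most often mutated in Diamond-Blackfan anaemia, rose by 0.51, Rplp2 of the stalk by 0.49, and Rpl38, which in mouse embryos is needed for translation of Hox messages, by 0.28. With the counts corrected for GC content of the transcripts, these 3 changes were 0.02, 0.18 and 0.03 and no longer called (edgeR adjusted p = 0.822, 0.17 and 0.755). Rpl10, which joins the large subunit at a late step of its maturation, averaged 2302 ± 168 CPM at 72 h and 2234 ± 181 CPM at 24 h, a log2 difference of 0.04 ± 0.06 that was not called (edgeR adjusted p = 0.547).

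Both members called lower at 72 h are paralogs of core genes. Rpl7l1 resembles Rpl7 and the yeast assembly factor Rlp7. With TLR7 it had 89.1, 93.0, 87.3 and 105 CPM at 72 h, against 346, 320, 194 and 213 CPM at 24 h. With TLR2 it had 193, 76.4, 208 and 218.5 CPM at 72 h, against 334, 295, 332 and 335 CPM at 24 h. With OVA it had 88.4, 75.2, 69.1 and 211 CPM at 72 h, against 169, 371, 183 and 315 CPM at 24 h. The groups did not overlap with TLR7 and TLR2, and they did with OVA. The fall was 1.22 on the log2 scale (SE 0.20, edgeR adjusted p = 7.78e-05). It was also called with each stimulus. Leaving out 1 library at a time ended the call in 0 of 8 cases with TLR7, in 7 of 8 with TLR2 (all but TLR2 72 h replicate 4) and in 5 of 8 with OVA (OVA 72 h replicates 1, 2 and 3 and OVA 24 h replicates 2 and 4), at edgeR adjusted p up to 0.012, 0.15 and 0.123. With TLR2 it was also lost with library size alone, a minimum count of 50 or no filter (edgeR adjusted p = 0.0618, 0.0504 and 0.0673). With OVA it was lost with the groups compared alone (edgeR adjusted p = 0.171). Without the 5 shallow libraries it was lost with each stimulus (edgeR adjusted p = 0.11 with TLR7, 0.102 with TLR2 and 0.172 with OVA). The 8 middle libraries held 169 to 218.5 CPM of Rpl7l1, between 69.1 to 105 CPM in the other 8 libraries at 72 h and 295 to 371 CPM in the other 8 at 24 h. Within the 8 middle libraries the fall was not seen: those at 72 h held 193 to 218.5 CPM and those at 24 h 169 to 213 CPM. Rpl7 itself averaged 3408 ± 285 CPM at 72 h and 3429 ± 446 CPM at 24 h, and was not called (edgeR adjusted p = 0.927). Rpl7l1 was 3.73 ± 1.84% of Rpl7 at 72 h and 8.27 ± 1.87% at 24 h (SD, n = 12 each).

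Rps27l, a paralog of Rps27 known as a target of p53, was also lower at 72 h. With TLR7 it had 74.6, 83.2, 72.4 and 100.4 CPM at 72 h, against 150.4, 173, 100.5 and 120 CPM at 24 h. With TLR2 it had 111, 73.8, 125 and 129 CPM at 72 h, against 158, 172, 157 and 173 CPM at 24 h. With OVA it had 84.7, 69.2, 41.4 and 119 CPM at 72 h, against 92.4, 216, 102 and 147 CPM at 24 h. It fell by 0.71 on the log2 scale (SE 0.16, edgeR adjusted p = 0.000658), while Rps27 rose by 0.48 (SE 0.12, adjusted p = 0.00149). Within the 8 middle libraries the fall of Rps27l was not seen: those at 72 h held 111 to 129 CPM and those at 24 h 92.4 to 120 CPM. Rps27l was 7.94 ± 3.45% of Rps27 at 72 h and 16.8 ± 4.79% at 24 h (SD, n = 12 each). OVA 72 h replicate 3 stood out in this pair, with the highest Rps27 of all libraries, 2314 CPM, and the lowest Rps27l, 41.4 CPM.

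Neither of the other paralogs was called lower. Rpl22 and Rpl22l1 encode alternative versions of the same large-subunit protein, and mice without Rpl22 have a block in the development of αβ T cells. Both were called higher at 72 h, Rpl22 by 0.23 and Rpl22l1 by 0.39 on the log2 scale (edgeR adjusted p = 0.00881 and 0.00404). With TLR7, Rpl22l1 had 443, 492, 435 and 548 CPM at 72 h, against 224, 272, 285 and 294 CPM at 24 h, and the groups did not overlap (log2 fold change 0.84 ± 0.19, adjusted p = 0.0029). It was not called with TLR2 (0.145, edgeR adjusted p = 0.551) or with OVA (0.19, adjusted p = 0.454). The ratio of Rpl22l1 to Rpl22 with TLR7 was 64.7 ± 9.19% at 72 h and 43.9 ± 3.80% at 24 h (SD, n = 4 each). With TLR2 it was 52.8 ± 10.4% at 72 h and 56.7 ± 14.1% at 24 h, and with OVA 51.5 ± 6.31% at 72 h and 51.3 ± 4.90% at 24 h. The difference between TLR7 and OVA in how Rpl22l1 changed with time, 0.64 ± 0.27 on the log2 scale, was not called (edgeR adjusted p = 0.246). Rpl36al, a variant copy of Rpl36a, was not called (log2 difference -0.05, edgeR adjusted p = 0.559) while Rpl36a rose by 0.33, and its ratio to Rpl36a, like those of Rpl7l1 and Rps27l to their partners, had a lower mean at 72 h, 38.7 ± 4.01%, than at 24 h, 50.5 ± 6.02% (SD, n = 12 each), and also with each stimulus.

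**Figure D3:**
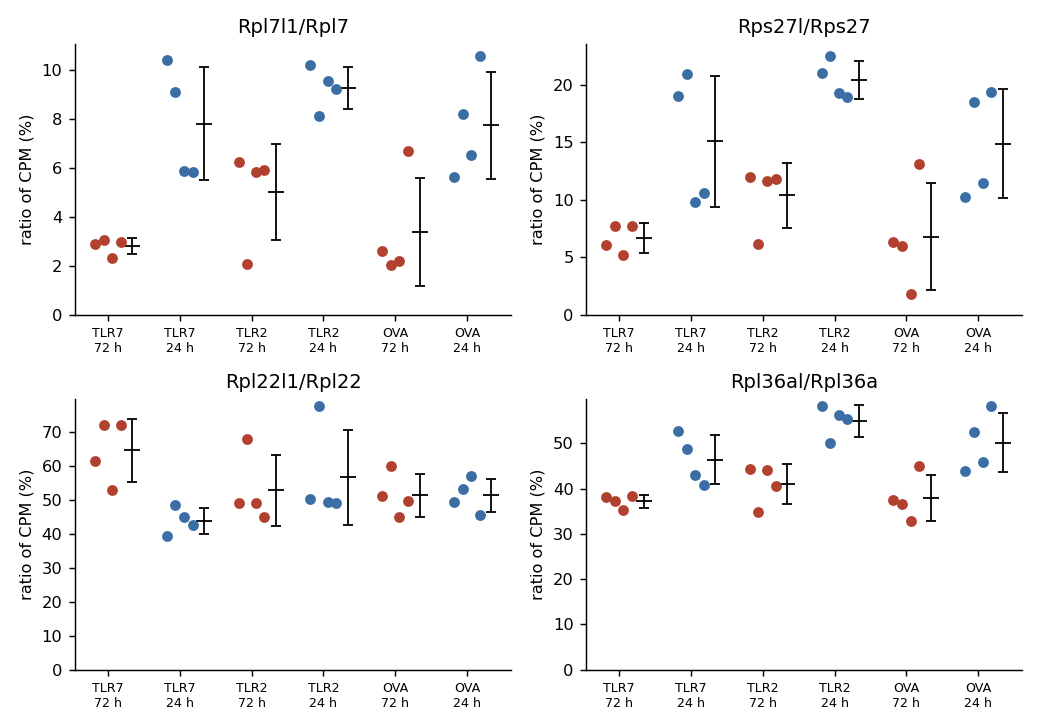
Ratio of the CPM of a paralog to that of its partner, in percent, in each library by group, with the group mean ± SD (n = 4). The ratios of Rpl7l1 to Rpl7 and of Rps27l to Rps27 are lower at 72 h (red) than at 24 h (blue) for most libraries, whereas that of Rpl22l1 to Rpl22 overlaps between the times except with TLR7.

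Within each stimulus the direction was shared but the number of calls was not. With TLR7, 55 members were called higher at 72 h and 2 lower, where 19.0% of all genes were called higher and 24.2% lower. With TLR2, 12 were called higher and 1 lower (21.7% and 17.4% of all genes), a smaller share of the members than of all genes, and all 12 were also called with TLR7. With OVA, 3 were called higher (Rpl17, Rps15a and Rps27) and 2 lower (8.17% and 10.4% of all genes), again smaller shares than of all genes. The lower calls with OVA, Rpl7l1 and Rps27l, were each lost in 5 of 8 cases when 1 library was left out. With TLR7, Rps27l was lost without TLR7 72 h replicates 1, 2 or 3 or TLR7 24 h replicates 1 or 2. The median log2 fold change of the members was 0.47 with TLR7, 0.28 with TLR2 and 0.29 with OVA, against -0.01, -0.01 and 0.09 over all genes. Log2 fold changes were above 0 with all 3 stimuli in 73 of the 84 members, against 37.1% of all genes, and below 0 with all 3 in Rpl7l1, Rps25 and Rps27l. The tests of whether the change with time differed between stimuli called no member for either agonist (edgeR), with an unadjusted p under 0.05 in 1 member for TLR7 and 0 for TLR2, and 0 members called by DESeq2. The larger number of calls with TLR7 does not show a larger change. Of all genes, 0.81% were called for TLR7 and 0.0% for TLR2.

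With TLR7, rises among the largest were again those of Rpl36 (log2 fold change 1.32 ± 0.46, edgeR adjusted p = 0.0263), Rplp1 (1.27 ± 0.42), Rps15 (1.09 ± 0.35), Rpl28 (0.95 ± 0.26) and Rpl18 (0.89 ± 0.31). Rpl36 had 402, 292, 235 and 206 CPM at 72 h, against 132, 46.7, 146 and 129 CPM at 24 h. Rplp1 had 1746, 1264, 1123 and 1066 CPM at 72 h, against 632, 255, 642 and 626 CPM at 24 h. In both genes the groups did not overlap, and TLR7 24 h replicate 2 was far below the other libraries. Without that library 21 members were called higher with TLR7, where 9.47% of all genes were. Without the 5 shallow libraries, 3 of which are in these groups, edgeR called 0 members and 5 of all genes. At an unadjusted p under 0.05 there were 28 members, and the share of all genes at that level is not given.

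With TLR2, the largest called rises were Rpl28 (0.80 ± 0.26), Rps15a (0.66 ± 0.18), Rps18 (0.66 ± 0.21), Rpl17 (0.62 ± 0.17), Rpl13 (0.60 ± 0.22) and Rps14 (0.58 ± 0.23). Rps15a had 1364, 2186, 1559 and 1574 CPM at 72 h, against 975, 1059, 1026 and 1161 CPM at 24 h, so the groups did not overlap and replicate 2 stood highest at 72 h. That replicate is the only TLR2 72 h library outside the middle of the first component. Without it no member was called by edgeR, where 8.23% of all genes were called higher and 1.07% lower. At an unadjusted p under 0.05 there were 10 members, and the share of all genes at that level is not given. The members called higher numbered 2 without TLR2 24 h replicate 2, 6 without replicate 1 and 7 without replicate 3, where 16.6%, 16.5% and 17.0% of all genes were called higher. They numbered 8 without TLR2 72 h replicate 3 and 7 without replicate 4 (20.8% and 19.7% of all genes).

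With OVA, Rps15a had 2209, 2115, 2084 and 1371 CPM at 72 h, against 1414, 1343, 1440 and 928 CPM at 24 h (0.60 ± 0.18, edgeR adjusted p = 0.0361). Replicate 4 at 72 h was the exception, below 2 of the 24 h libraries. Rpl17 had 2843, 2465, 2867 and 1783 CPM at 72 h, against 1790, 1795, 1790 and 1226 CPM at 24 h (0.59 ± 0.17, adjusted p = 0.0341). Without OVA 72 h replicate 4, 20 members were called higher and 2 lower, where 12.3% and 19.5% of all genes were. Without any 1 of OVA 72 h replicates 1, 2 and 3 or OVA 24 h replicates 2 and 4, no member was called by edgeR. Of all genes, 0 to 73 were called higher in these fits. At an unadjusted p under 0.05 there were 5 to 16 members, and the share of all genes at that level is not given. Without the 8 middle libraries 35 were called higher and 2 lower, where 26.3% and 22.3% of all genes were. Those libraries were picked on a component that separates the times, so leaving them out widens the difference and is no check.

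**Figure D4:**
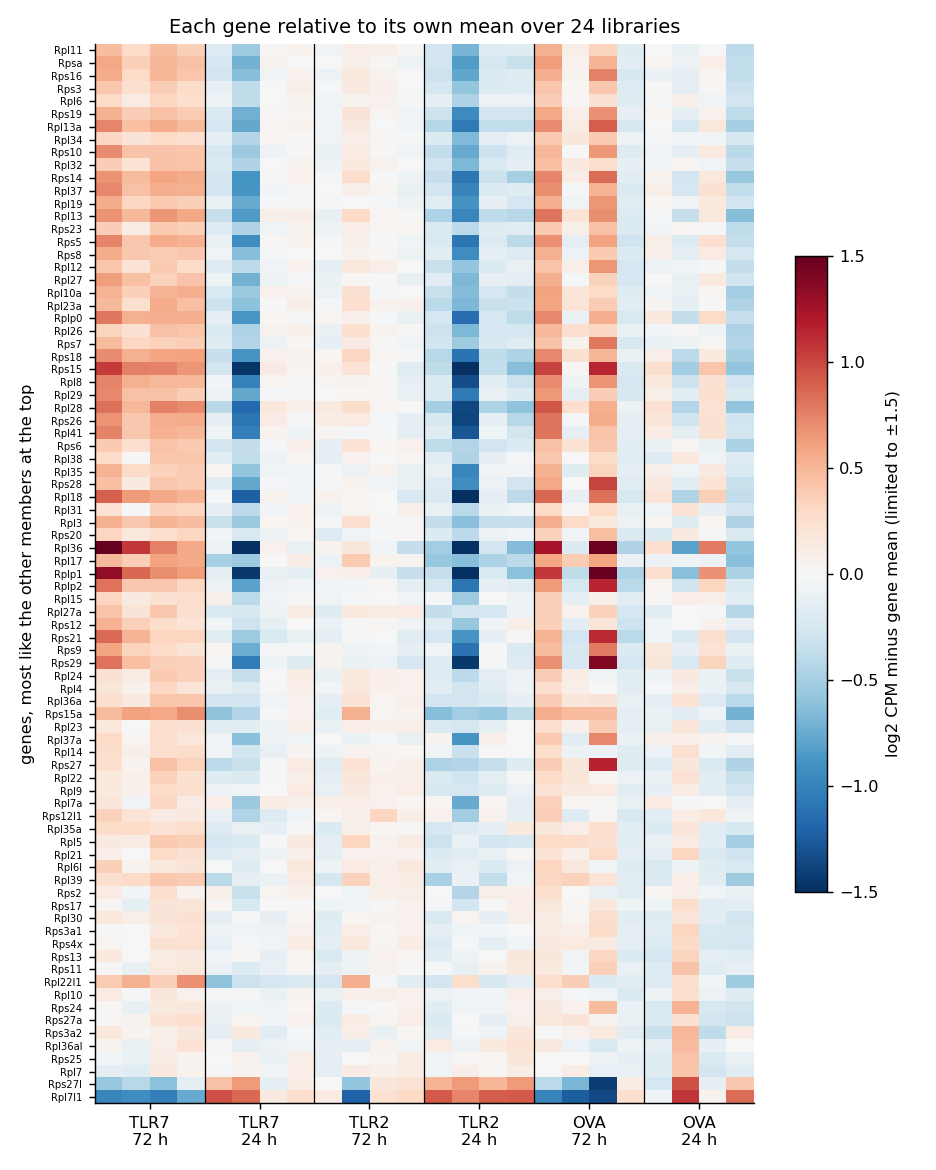
Log2 CPM of the members, all but 1 of the 84, in each library relative to that gene's mean over the 24 libraries, with groups of 4 libraries side by side and genes ordered by how closely they follow the other members. Most rows are red in TLR7 72 h and blue in the second library of TLR7 24 h and of TLR2 24 h, and the bottom 2 rows, Rps27l and Rpl7l1, run the other way.

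The members moved together over the libraries. The Pearson correlation between a member's log2 CPM and the mean of the other members over 24 libraries had a median of 0.91, and 45 members were above 0.9. The libraries share group, time and depth, so these are descriptions. The most alike were Rpl11 (0.99), Rpsa, Rps16, Rps3 and Rpl6. The least alike were Rpl7l1 (-0.80), Rps27l (-0.75), Rpl7 (-0.05), Rps25 (0.01) and Rpl36al (0.13). Rps25, a small-subunit protein, varied little, with an SD of 0.13 in log2 CPM, and its highest value, 2142 CPM, was in OVA 24 h replicate 2.

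Rises and GC content moved together. Across the 84 members, the log2 fold change at 72 h over 24 h had a correlation of 0.41 with the GC content of the principal transcript, which ran from 40.6% to 60.8%. Over 14508 genes that correlation was 0.22. Of the 42 members with the higher GC content, 36 were called higher and the median log2 fold change was 0.47, and 45.0% of all genes in that range of GC content were called higher, with a median of 0.23. Of the 42 with the lower GC content, 28 were called higher and the median was 0.23, and 27.8% of all genes in that range were, with a median of -0.11. With the correction for GC content, 52 members were called higher and 3 lower at 72 h, where 31.8% of all genes were called higher and 37.5% lower. The part of GC content in the result was not tested beyond that. Changes between stimuli also had correlations with GC content across the members. At 72 h they were 0.516 for TLR7 against TLR2, 0.248 for TLR7 against OVA and -0.503 for TLR2 against OVA. Over all genes these were 0.2, 0.0785 and -0.195. At 24 h they were 0.481, -0.454 and -0.603 in the same order, against 0.138, -0.185 and -0.256 over all genes. The correlations are across genes, which are not independent replicates.

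**Figure D5:**
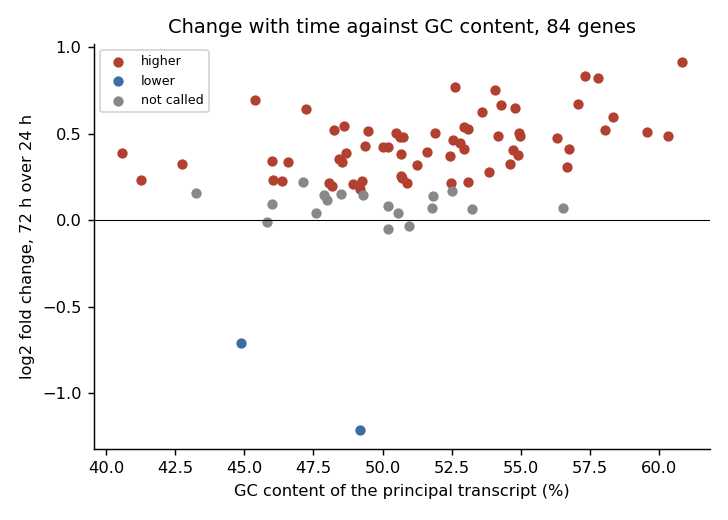
Log2 fold change at 72 h over 24 h, averaged over the 3 stimuli, against the GC content of the principal transcript in percent, for the 84 members; red were called higher, blue lower and grey not called. Rpl36, the member with the highest GC content, 60.8%, has the highest value, and the genes without a call lie between 43.2% and 56.5%.

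No member was called between stimuli at the same time in the main edgeR fit on all 24 libraries. TLR7 against TLR2 at 72 h came nearest: 81 of 84 log2 fold changes were above 0, with a median of 0.31 against -0.04 over all genes, and 39 members had an unadjusted p under 0.05, where 26.5% of all genes did and 4.8% were called. Rplp1 had 1746, 1264, 1123 and 1066 CPM with TLR7, against 726, 745, 635 and 546 CPM with TLR2 (log2 fold change 0.97 ± 0.41, edgeR adjusted p = 0.145), and the groups did not overlap. DESeq2 called 5 members higher in this comparison. An edgeR fit on these groups alone called 43 higher and 1 lower, and edgeR with the correction for GC content gave 15 higher. Of all genes these 3 called 3.68%, 12.2% and 3.59% higher. Of the 4 TLR2 72 h libraries 3 are in the middle of the first component, and no member was called without the middle libraries, when TLR2 72 h keeps 1 library (0 members at an unadjusted p under 0.05). At 24 h, TLR7 against TLR2 gave a median of 0.13, with no member called by edgeR or DESeq2 and 0 at an unadjusted p under 0.05, where 21.3% of all genes were and 1.24% were called.

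The comparisons with OVA share its libraries and are given side by side. TLR7 against OVA at 72 h had a median log2 fold change of 0.13 over the members, against -0.08 over all genes, of which 3.62% were called, with 2 members at an unadjusted p under 0.05 and 18.7% of all genes. At 24 h it had a median of -0.05, where 0.22% of all genes were called, and 0 members at that level, against 10.1% of all genes. TLR2 against OVA had a median of -0.19 at 72 h and -0.18 at 24 h, where 0.0% of all genes were called at either time, and 1 member at that level in each, against 11.6% of all genes at 72 h and 15.2% at 24 h. DESeq2 called no member in any of these 4. The groups compared differ in libraries from the middle of the first component. At 72 h these were TLR2 replicates 1, 3 and 4 and OVA replicate 4, with none from TLR7. At 24 h they were OVA replicates 1 and 3 and TLR7 replicates 3 and 4, with none from TLR2. The part of this in the comparisons with OVA was not tested. Rpl22l1 had the highest value in TLR7 against OVA at 72 h, 0.41 ± 0.19 (edgeR adjusted p = 0.246), with 443, 492, 435 and 548 CPM with TLR7, against 404, 440, 296 and 301 CPM with OVA. A p that misses the threshold does not show that the stimuli gave the same level.

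Other genes of the translation machinery were compared between the times, on the average over stimuli, where 35.3% of all genes were called higher and 32.4% lower. Fau, which encodes a ribosomal protein fused to a ubiquitin-like protein, and Rack1, a scaffold on the small subunit, were called higher, by 0.88 and 0.41 on the log2 scale. Of 20 elongation factors and other TOP messages, 6 were called higher and 6 lower, close to the shares over all genes. Eef1a1, which brings aminoacyl-tRNA to the ribosome, averaged 23020 ± 3151 CPM at 72 h and 16260 ± 2642 CPM at 24 h (SD, n = 12 each), and Eef2, the translocation factor, rose by 0.78. Npm1, a nucleolar chaperone, fell by 0.86.

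Genes for making ribosomes were lower while the ribosomal protein genes were higher. All 44 ribosome biogenesis genes tested were called lower at 72 h, where 32.4% of all genes were, with a median log2 fold change of -1.18, against 0.04 over all genes. Ncl, the nucleolar protein nucleolin, averaged 2432 ± 1362 CPM at 72 h and 6071 ± 1920 CPM at 24 h, and Fbl, the methyltransferase of box C/D particles, 158 ± 73.0 CPM at 72 h and 351 ± 94.8 CPM at 24 h. Of 19 RNA polymerase I genes 15 were called lower and 1 higher, with a median of -0.75. Of 33 initiation factors and eIF4E-binding proteins 28 were called lower and 1 higher, with a median of -0.74. The 1 called higher was Eif4ebp1, an eIF4E-binding protein, which rose by 1.32. Of 77 mitochondrial ribosomal protein genes 56 were called lower and 4 higher, with a median of -0.40. Of 24 regulators of ribosomal protein messages 13 were called lower and 4 higher, against 32.4% and 35.3% of all genes. Larp1 fell by 0.55 and Mtor by 0.40, whereas Myc was not called (-0.21 ± 0.12, edgeR adjusted p = 0.134). Pik3cd, the catalytic subunit of a phosphoinositide 3-kinase of lymphocytes, rose by 1.27.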

How the data were processed

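Messenger RNA was sequenced from 24 libraries in 6 groups of 4, named by stimulus and time in the labels, from which the replicate numbers came. The deposited values are expected counts for each gene, unscaled, with a file for every library. The submitters' processing notes name STAR, RSEM and edgeR with GRCm38. Tool versions and the strand setting were not given in the sources used here. Overlapping and antisense genes are therefore uncertain. Expected counts were rounded to whole numbers. The main test was edgeR's quasi-likelihood F test (edgeR 4.0.16, R 4.3.3) on all 24 libraries with a term per group, TMM scaling and filterByExpr (minimum count 10, minimum total 15), which left 14560 genes and 18 residual degrees of freedom. P-values were adjusted by Benjamini-Hochberg over all genes tested, with a threshold of 0.05. All 84 members passed the filter. CPM are counts scaled to the TMM-adjusted library size. Totals of 10.5 to 27.1 M (mega) counts put 3 counts at 0.286 CPM in the shallowest library and 0.111 CPM in the deepest, for counting error only. Positions and lengths are from GENCODE M21, and start sequences from RefSeq. Replicate numbers are not stated to pair the samples, and correlations of same-numbered libraries were centred near 0. They were therefore not used as pairs in the main test, though pairing is not excluded.

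The members, gene lists, tests and alternatives were chosen with earlier results of these data known. Named members were a fixed list of well-studied genes, the 6 largest called changes in each direction per comparison, and the extremes of likeness and of level per kilobase. Others named were chosen after their values were seen. Alternatives were other scalings and filters, a replicate block, robust estimation, fits on the compared groups alone, DESeq2 1.42.0, addition of pseudogene rows and leaving out each library. A correction for GC content and leaving out the 8 middle, 5 shallow or 2 lowest libraries were added after seeing the data. The first component was computed from the same libraries, so leaving out its middle widens the difference between the times. The fit was tested on simulated data. Some genes that the naming rule or the lists hold are not reported here; counts and medians include them.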

Additional observations from a re-analysis of the deposited data

Results flagged for a closer look

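Of 174 sets of 4 libraries checked for a library far from the others, 19 were flagged; chance flags about 1 in 20 sets, and members that move together are not independent. TLR2 24 h replicate 2 was the lowest of its group for Rpl13 at 607.4 CPM (the others at 867.1 to 914.4), Rpl13a at 867 CPM (1349 to 1401), Rpl3 at 2345 CPM (2820 to 2840), Rpl7l1 at 295.3 CPM (332 to 335.1), Rps18 at 854.3 CPM (1335 to 1410), Rps19 at 591.3 CPM (919.7 to 945.6) and Rpsa at 2264 CPM (3216 to 3411). TLR7 24 h replicate 2, a shallow library, was the lowest for Rpl18 at 346.5 CPM (787.6 to 837.8), Rplp1 at 255 CPM (626.3 to 642.5) and Rplp2 at 255.6 CPM (418.5 to 430.3).

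OVA 72 h replicate 4, in the middle of the first principal component, was the lowest for Rpl5 at 2939 CPM (3827 to 4010) and Rps15a at 1371 CPM (2084 to 2209) and the highest for Rpl7l1 at 211 CPM (69.13 to 88.37). TLR2 72 h replicate 2, the library of its group outside that middle, was the highest for Rpl3 at 4324 CPM (3591 to 3657) and Rps14 at 1412 CPM (1124 to 1169), and TLR2 72 h replicate 1 the lowest for Rpl10 at 2118 CPM (2362 to 2411). TLR7 72 h replicate 1, also shallow, was the highest for Rplp0 at 6002 CPM (5020 to 5070) and Rplp2 at 784.3 CPM (552.2 to 590.7). OVA 24 h replicate 4, also shallow, was the lowest for Rpl17 at 1226 CPM (1790 to 1795).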

How the results depend on the processing

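For 72 h against 24 h averaged over stimuli, every alternative gave a count of called members within 1.5 times the main 66, and leaving out single libraries gave 61 to 71. With TLR7 the main 57 calls became 31 with no filter and 0 without the 5 shallow libraries, and 22 (without TLR7 24 h replicate 2) to 60 without single libraries. With TLR2 the main 13 became 25 with the groups compared alone, 28 with library size alone, 21 at a minimum count of 50, 4 with no filter, 7 with the GC correction, 6 without the 2 lowest or without the 5 shallow libraries, and 0 to 12 without single libraries. With OVA the main 5 became 8 with DESeq2 or the GC correction, 0 with the groups compared alone or without the 5 shallow libraries, 1 with no filter, 37 without the 8 middle libraries, 28 with the GC correction besides, and 0 to 22 without single libraries. For TLR7 against TLR2 at 72 h the main 0 became 5 with DESeq2, 44 with the groups compared alone, 15 with the GC correction, 1 without the 2 lowest libraries and 0 to 3 without single libraries. Leaving out single libraries gave 0 to 2 for TLR7 against OVA at 72 h and 0 to 1 for TLR2 against OVA at 72 h. The shares of all genes called are not given beside these counts, so a change in a count need not be particular to the members. The cause of these changes was not tested. The middle libraries were picked on a component that separates the times, so leaving them out widens that difference. In the averaged comparison, Rpl10 was -0.013 and Rpl38 -0.011 on the log2 scale without the middle libraries and with the GC correction, against main values above 0. The median level per kilobase was 645.5 CPM with the union of exons, which is longer by construction. Whether replicate numbers pair the samples is not stated, and the values do not settle it. The correlation of same-numbered libraries had medians near 0 and ran from -0.62 to 0.52, while 16 of 24 libraries lay nearer their own number. With the replicate block, the calls with TLR2 were 23, against the main 13. The share of all genes called is not given beside this count either, so the change need not be particular to the members.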
